A study of Homo sapiens with 9 samples.

Results

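The genes described here encode the coat protein complex II (COPII): the GTPases SAR1A and SAR1B, the inner coat subunits SEC23A and SEC23B, the cargo adaptors SEC24A, SEC24B, SEC24C and SEC24D, and the outer coat subunits SEC13 and SEC31A. They were chosen by gene name, and all 10 were found among the 58735 genes of the deposited count table and passed the filter on low counts, as did 15555 genes in all. The counts came from poly(A) RNA of VCaP cells, a human prostate cancer line, grown in medium with 2 nM of the androgen DHT. Groups of 3 libraries each were compared: cells given a control siRNA (siCtrl, genotype labelled WT) and cells given one of the siRNAs against CDO1, siCDO1A or siCDO1C (genotype labelled CDO1 knockdown). CDO1 is the dioxygenase that oxidises cysteine, and the comparisons ask which transcripts differ when its RNA is reduced. Libraries are labelled as biological replicates, and the label for batch equals the replicate number. The knockdown is transient and in 1 cell line, and these are bulk RNA levels, in which fewer cells of a type and less RNA per cell cannot be told apart.

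COPII coats the vesicles that carry newly made secretory and membrane proteins from the endoplasmic reticulum (ER) towards the Golgi. SAR1 bound to GTP inserts into the ER membrane and recruits the SEC23 and SEC24 inner coat, in which SEC23 speeds up GTP hydrolysis by SAR1 and SEC24 binds the sorting signals of cargo. SEC13 and SEC31 then assemble into the outer cage, and prostate cells, which secrete large amounts of protein, depend on this route.

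Short stretches of sequence are shown first for the members that were highest relative to siCtrl, because all of them share a run of letters in the 3′ untranslated region (3′UTR). In the longest annotated 3′UTR of each gene (GENCODE v44 transcripts, lifted to GRCh37), GCAGTAC was found on the transcript strand in SAR1B, SEC24A and SEC24B and in none of the other 7 members, and in 5.58% of the 12976 tested genes that have such a 3′UTR. The longer GCAGTACA, which contains it, was found in SAR1B and SEC24B and in 1.92% of those genes. Capitals mark the match, written as DNA, and each line runs 5′ to 3′.
SAR1B: gcaactttccaGCAGTACAtttgaagcact
SEC24A: tagtcactcaaGCAGTACcatttattttag
SEC24B: ccagtagtatgGCAGTACAgtgctctgttc
The matches lie at bases 280 to 287 of 5801 in the SAR1B 3′UTR, 2347 to 2353 of 2815 in SEC24A, and 257 to 264 of 1221 in SEC24B. The long 3′UTR of SAR1A, of 5187 bases, holds no match. The other members without a match have shorter ones, from 330 bases (SEC13) to 1320 (SEC23A). A longer 3′UTR has more places for a match, and the shares of all genes were not matched for length. Of 4 other runs searched in the same way, CAGTACA was found in SAR1B and SEC24B (9.98% of genes). GCAGTACA contains CAGTACA, so the SAR1B match is the site shown above, and SEC24B had a further match at bases 507 to 513. TACATCA was found in SEC24A and SEC31A (10.1%), ACATCAA in SEC31A (11.3%) and CATCAAA in no member (14.0%). TACATCA and ACATCAA thus did not follow the direction of change. All 6 runs of letters were searched because earlier results from the same libraries had brought them up, so their presence is a description and not independent evidence, and whether any siRNA acts through them was not tested.

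Promoter windows (RefSeq, GRCh38.p14, from 250 bases before to 50 after each start) were found for 9 members, 14 windows in all, with none for SEC24D. The core letters of the unfolded protein response element, TGACGTGG, searched on both strands, were found in the windows of SEC24A and SEC23A and in 0.729% of all 35116 windows. They are shown because the transcription factors described further on are known to act through such elements, and capitals again mark the match.
SEC24A: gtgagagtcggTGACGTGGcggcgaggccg
SEC23A: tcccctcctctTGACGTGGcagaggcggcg
The SEC24A stretch is chr5:134648595-134648624 on the plus strand, its match beginning 179 bases before the start. The SEC23A stretch is chr14:39103221-39103250 on the minus strand, its match beginning 4 bases before the start. SEC24A and SEC23A moved in opposite directions, as described below. The ER stress elements ERSE and ERSE-II had no match in the members' windows and were in 0.0769% and 0.0541% of all windows. The element CRE (TGACGTCA) had no match in the members' windows either, and was in 1.85% of all windows.

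Library totals ranged from 12061295 to 16073698 counts, and each member had between 396 and 3302 counts in every library. CDO1 itself was at 14.18, 14.09 and 13.66 CPM (counts scaled by the size of the library, after TMM) in siCtrl, at 3.28, 2.05 and 2.18 with siCDO1A and at 1.10, 2.81 and 1.16 with siCDO1C. Its mean fell by 82.1% with siCDO1A and fell by 87.9% with siCDO1C. Of the markers of VCaP cells, the prostate genes KLK3 and TMPRSS2 ranged over the libraries from 28.9 to 46.1 CPM and from 116 to 134 CPM, and the luminal keratin gene KRT8 from 306 to 404 CPM. Fibroblast markers summed to between 13.9 and 22.8 CPM in any library, with COL1A2 at 0, and leukocyte markers to at most 0.413 CPM. Replicate 2 of siCDO1C stood furthest from the others of its group, with a root mean square log2 difference of 0.266 over 11337 genes, against 0.139 to 0.190 for the remaining libraries.

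With siCDO1A, 6 of the 10 members passed the threshold (edgeR quasi-likelihood test, Benjamini-Hochberg adjusted p at most 0.05 over all genes tested), against 14.8% of all genes. SAR1B, SEC24A and SEC24B rose (7.37% of all genes did), and SAR1A, SEC23A and SEC24D fell (7.48%). With siCDO1C, 3 members passed, against 4.77% of all genes: SAR1B and SEC24A rose (2.27% of all genes did) and SEC24D fell (2.5%). Between siCDO1C and siCDO1A no member passed in edgeR or in DESeq2, where 0.444% of all genes did in edgeR, and 1 member had an unadjusted p under 0.05 in each. Both comparisons with siCtrl use the same 3 control libraries. Across the 10 members the median log2 fold change was -0.12 for siCDO1A, beside 0.01 over all genes, and -0.16 for siCDO1C, beside -0.00023.

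**Figure D1:**
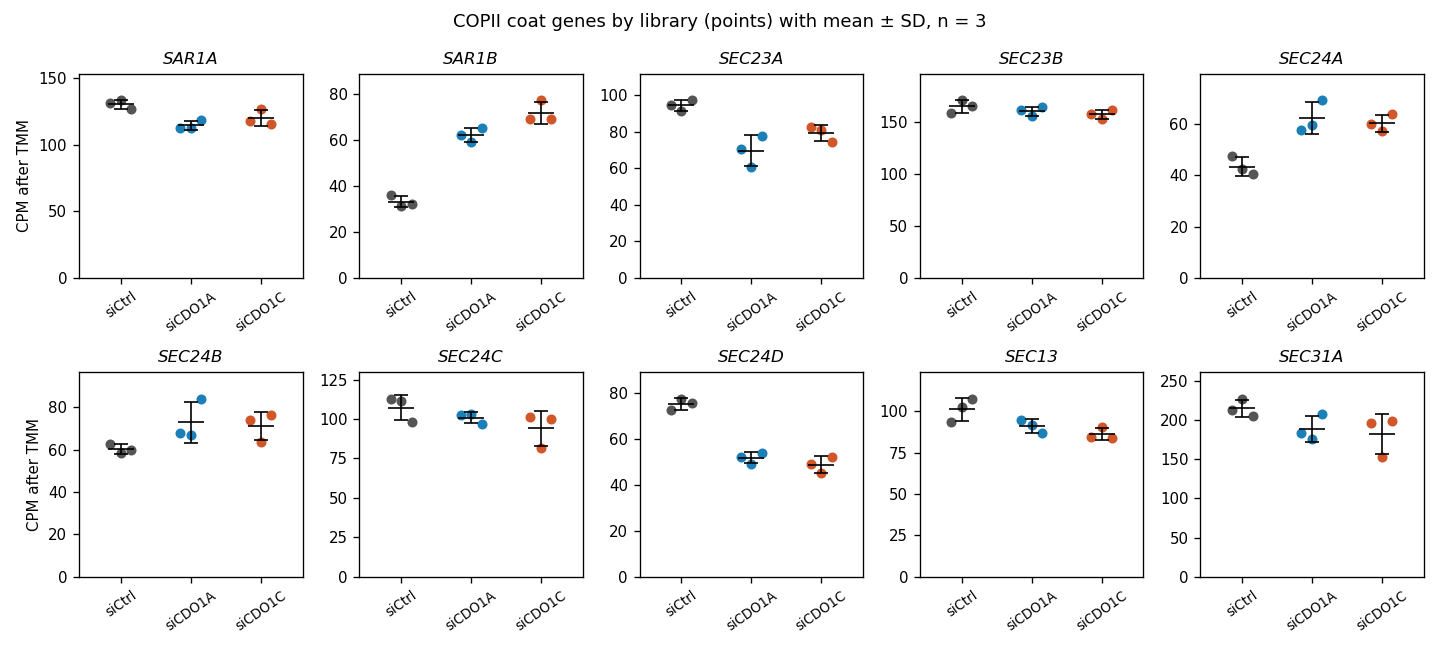
Level of each COPII coat gene in every library, in CPM after TMM scaling (vertical axis, from 0, a separate scale per gene), by group (horizontal axis), with points for libraries and bars for the mean ± SD of 3. SAR1B, SEC24A and SEC24B lie above siCtrl in all 6 siRNA libraries, and SAR1A, SEC23A and SEC24D lie below it in all 6.

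The GTPases gave the widest contrast. SAR1B, the SAR1 form that enterocytes need to secrete chylomicrons, was at 36.08, 31.53 and 32.30 CPM in siCtrl, at 62.10, 59.47 and 65.50 CPM with siCDO1A, and at 69.20, 77.45 and 69.22 CPM with siCDO1C. All 6 siRNA libraries lay well above siCtrl, and those of siCDO1C lay above those of siCDO1A. The means were 33.3 ± 2.44, 62.4 ± 3.02 and 72.0 ± 4.75 CPM (SD, n = 3), so SAR1B rose 1.87-fold with siCDO1A (log2 fold change 0.91, SE 0.0790, adjusted p = 1.18e-07) and 2.16-fold with siCDO1C (1.10, SE 0.0882, adjusted p = 3.92e-06). SiCDO1C exceeded siCDO1A by 0.20 on the log2 scale (95% confidence interval 0.0171 to 0.387), which did not pass after adjustment (adjusted p = 0.598).

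SAR1A, which is expressed in most tissues, was at 130.99, 133.21 and 126.45 CPM in siCtrl, at 112.71, 112.30 and 118.05 CPM with siCDO1A, and at 117.51, 126.44 and 115.42 CPM with siCDO1C. All 6 siRNA libraries were lower than siCtrl, with siCDO1C replicate 2 all but touching siCtrl replicate 3. With siCDO1A it fell by 0.19 on the log2 scale (SE 0.0578, adjusted p = 0.0334), and with siCDO1C the value was -0.13 (SE 0.0711, adjusted p = 0.370). The siCDO1A call was lost with a replicate block (adjusted p = 0.147), and without siCtrl replicate 1 (0.116) or 2 (0.147) or siCDO1A replicate 1 (0.115) or 2 (0.125). It was also lost without the filter on low counts (0.0622), in 1 fit of all 9 libraries (0.0997) and with offsets for GC content and length (log2 fold change -0.11, adjusted p = 0.0753, and 0.137 with the block as well), so that it passed in 5 of 15 alternatives.

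SAR1B (ENSG00000152700) lies on chromosome 5 at 134601144 to 134649271 on the minus strand, and SEC24A (ENSG00000113615) at 134648789 to 134727823 on the plus strand (hg38), so they stand head to head. In the deposited annotation the 5′ ends overlap by 483 bases, and since the strand setting of the counting is not given in the sources used here, reads from that stretch cannot be assigned to either gene with certainty. The RefSeq start sites are 15957 bases apart. Both genes rose with each siRNA, SAR1B by more.

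The inner coat subunit SEC23A, whose mutation causes a skeletal disorder of the skull, was at 94.52, 91.17 and 97.07 CPM in siCtrl, at 70.55, 60.49 and 77.33 CPM with siCDO1A, and at 82.36, 80.57 and 74.01 CPM with siCDO1C. All 6 siRNA libraries were below siCtrl. SEC23A fell by 0.44 on the log2 scale with siCDO1A (SE 0.0768, adjusted p = 0.000511). With siCDO1C its log2 fold change was -0.26 (SE 0.0756, adjusted p = 0.0611), and it passed in 1 of 15 alternatives, without siCDO1C replicate 2 (adjusted p = 0.00542). Leaving out any other library gave adjusted p from 0.125 to 0.240.

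SEC23B, the paralog mutated in a congenital dyserythropoietic anaemia, was at 158.42, 170.39 and 164.65 CPM in siCtrl, at 161.03, 155.21 and 163.52 CPM with siCDO1A, and at 157.25, 152.15 and 160.97 CPM with siCDO1C. The groups overlapped. Its log2 fold changes were -0.04 (95% interval -0.156 to 0.0753, adjusted p = 0.685) and -0.08 (-0.225 to 0.0721, adjusted p = 0.616). With siCDO1A the SEC23B interval does not reach down to the log2 fold change of SEC23A, -0.44. With siCDO1C the interval of SEC23A, -0.423 to -0.101, overlaps that of SEC23B.

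**Figure D2:**
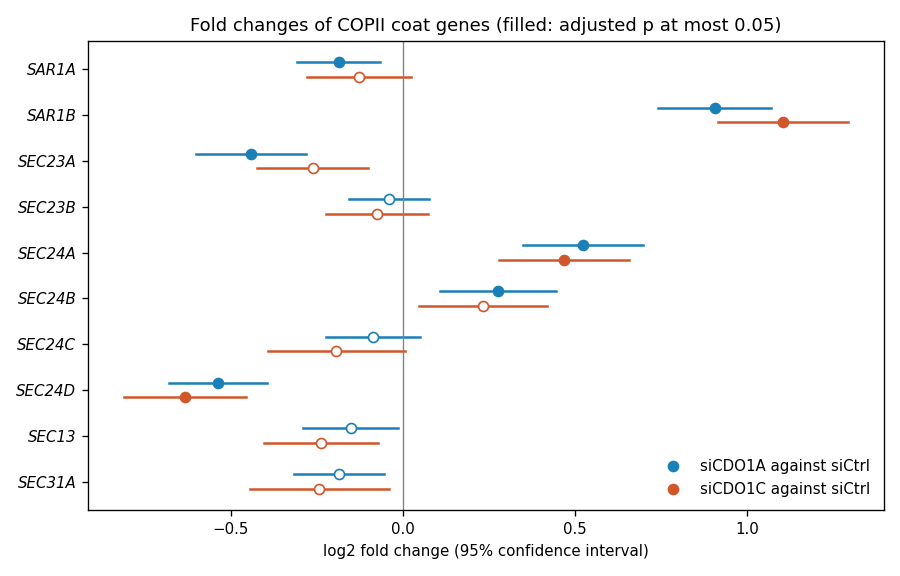
Log2 fold change of each COPII coat gene against siCtrl (horizontal axis) with its 95% confidence interval, for siCDO1A and siCDO1C, with filled points for an adjusted p of at most 0.05. SAR1B, SEC24A and SEC24B lie right of 0 with both siRNAs and the other 7 genes left of it, SEC24D furthest at -0.54 and -0.63.

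Among the cargo adaptors, SEC24A with SEC24B and SEC24C with SEC24D are the closer relatives. SEC24A was at 47.30, 42.52 and 40.37 CPM in siCtrl, at 57.67, 59.60 and 69.20 CPM with siCDO1A, and at 59.82, 57.29 and 63.78 CPM with siCDO1C. All 6 siRNA libraries were above siCtrl, with the highest in siCDO1A replicate 3. SEC24A rose by 0.52 on the log2 scale with siCDO1A (SE 0.0839, adjusted p = 0.000218) and by 0.47 with siCDO1C (SE 0.0883, adjusted p = 0.00603). The siCDO1C call was lost without siCtrl replicate 2 (adjusted p = 0.0550) or siCtrl replicate 3 (0.0605).

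SEC24B, which sorts the planar polarity protein VANGL2, was at 62.88, 58.28 and 59.62 CPM in siCtrl, at 67.92, 66.86 and 83.87 CPM with siCDO1A, and at 73.86, 63.45 and 76.15 CPM with siCDO1C. The groups did not overlap, but the lowest siCDO1C library lay close to the highest siCtrl library. With siCDO1A its log2 fold change was 0.28 (SE 0.0815, adjusted p = 0.0254), and with siCDO1C 0.23 (SE 0.0872, adjusted p = 0.156). The siCDO1A call was lost with a replicate block (adjusted p = 0.0672) and in 1 fit of all 9 libraries (0.0717). It was also lost without siCDO1A replicate 3 (0.0963, log2 fold change 0.16), siCtrl replicate 2 (0.115) or siCtrl replicate 3 (0.0617). With siCDO1C, SEC24B passed in 3 of 15 alternatives: with GC content and length offsets (0.0420), with these and the block (0.0298), and without siCDO1C replicate 2 (0.00206). Leaving out any other library left the siCDO1C adjusted p between 0.264 and 0.428.

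SEC24D was at 72.31, 77.23 and 75.65 CPM in siCtrl, at 52.09, 49.20 and 53.87 CPM with siCDO1A, and at 48.92, 44.89 and 52.14 CPM with siCDO1C. The gap between siCtrl and the siRNA libraries was wider than the spread within any group. SEC24D fell by 31.1% with siCDO1A (log2 fold change -0.54, SE 0.0689, adjusted p = 1.82e-05) and by 35.2% with siCDO1C (-0.63, SE 0.0830, adjusted p = 0.000468).

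SEC24C, its closest relative and the adaptor of the serotonin transporter, was at 112.68, 111.23 and 98.01 CPM in siCtrl, at 102.62, 103.26 and 97.03 CPM with siCDO1A, and at 101.20, 81.48 and 99.83 CPM with siCDO1C. The groups overlapped, and the lowest value was in siCDO1C replicate 2. Its log2 fold changes of -0.09 (SE 0.0656) and -0.19 (SE 0.0933) did not pass (adjusted p = 0.427 and 0.282). The siCDO1A value was -0.15 without siCtrl replicate 3, -0.06 without siCDO1A replicate 3 and -0.05 without siCtrl replicate 1, and the siCDO1C value was -0.10 without siCDO1C replicate 2.

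The outer coat subunits did not pass in either comparison. SEC13, a propeller protein that also sits in the nuclear pore and in GATOR2, a regulator of mTORC1, was at 93.66, 102.55 and 107.45 CPM in siCtrl, at 95.08, 91.77 and 86.85 CPM with siCDO1A, and at 84.55, 90.53 and 83.82 CPM with siCDO1C. Only siCtrl replicate 1 and siCDO1A replicate 1 overlapped. The log2 fold changes were -0.15 (SE 0.0663, adjusted p = 0.134) and -0.24 (SE 0.0775, adjusted p = 0.0980), the latter with an adjusted p of 0.00548 without siCDO1C replicate 2 and of 0.155 to 0.314 without any other library. With GC content and length offsets the adjusted p was 0.0343 for siCDO1A and 0.0554 for siCDO1C. With the replicate block as well it was 0.0502 and 0.0420.

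SEC31A, the rod of the outer cage, was at 212.65, 226.44 and 205.08 CPM in siCtrl, at 182.77, 175.94 and 207.27 CPM with siCDO1A, and at 195.62, 152.69 and 198.59 CPM with siCDO1C. Only siCDO1A replicate 3 reached into the siCtrl range, and siCDO1C replicate 2 was far below the other libraries of its group. Log2 fold changes were -0.19 (SE 0.0632, adjusted p = 0.0526) and -0.24 (SE 0.0945, adjusted p = 0.172). The first passed in 4 of 15 alternatives: without siCDO1A replicate 3 its adjusted p was 0.000218, without siCtrl replicate 3 it was 0.0369, and without any other library it was 0.122 to 0.257. Offsets for GC content and length moved it to -0.10 (adjusted p = 0.101), and the siCDO1C value was -0.13 without siCDO1C replicate 2. SEC31A overlaps THAP9-AS1 by 7952 bases on its own strand, a gene counted at 174 to 377 reads per library.

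Counting libraries and not tests, on the CPM scale 3 members lay above siCtrl in all 6 siRNA libraries (7.39% of all genes did) and 3 lay below it in all 6 (7.35%). The other 4 members, SEC23B, SEC24C, SEC13 and SEC31A, overlapped with siCtrl. On the TPM scale SEC24B overlapped with siCtrl as well, and SEC13 lay below it in all 6.

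Paralogs were then compared with each other inside each library, as the log2 ratio of their counts, which needs no scaling between libraries. The SAR1B over SAR1A ratio was -1.86, -2.08 and -1.97 in siCtrl, -0.86, -0.92 and -0.85 with siCDO1A, and -0.76, -0.71 and -0.74 with siCDO1C. It rose in every siRNA library, by 1.16 on average over the 6 CDO1 knockdown libraries against the 3 WT libraries (exact two-sided permutation test, p = 0.0238, the smallest this design allows, and 0.0238 adjusted over 8 ratios). By siRNA the difference was 1.09 and 1.23, and an exact permutation test of 3 libraries against 3 cannot go below p = 0.1. The genotype test, here and below, pools the libraries of both siRNAs, which are not replicates of a single condition. For this ratio the libraries of siCDO1A and siCDO1C did not overlap each other either.

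The SEC24A over SEC24D ratio changed sign. It was -0.61, -0.86 and -0.91 in siCtrl, 0.15, 0.28 and 0.36 with siCDO1A, and 0.29, 0.35 and 0.29 with siCDO1C, a difference of 1.08 by genotype. More reads thus fell on SEC24D than on SEC24A in each siCtrl library, and fewer in each siRNA library. As a ratio of counts, SEC24B over SEC24D changed sign as well, from a mean of -0.32 ± 0.105 (SD, n = 3) to 0.52 ± 0.0954 (SD, n = 6). Per length, SEC24B already lay above SEC24D in siCtrl, at 42.6 to 47.6 against 28.8 to 29.7 TPM, so that sign depends on gene length.

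The closer relatives separated too. SEC24C over SEC24D rose by 0.44 and SEC24A over SEC24B by 0.24, SEC24A over SEC24C by 0.64 and SEC24B over SEC24C by 0.39. SEC23A over SEC23B fell by 0.30, more with siCDO1A (-0.41) than with siCDO1C (-0.19), a difference between siRNAs within which libraries overlapped (exact permutation p = 0.2). All 8 ratios had non-overlapping genotypes and p = 0.0238 in the exact permutation test with both siRNAs pooled. For SEC23A over SEC23B the gap was narrow, with siCDO1C replicate 2 at -0.917 and siCtrl replicate 2 at -0.902. The 6 SEC24 ratios are not independent, since they share 4 genes. Each pair also holds a gene that by itself lay above or below siCtrl in all 6 siRNA libraries (7.39% and 7.35% of all genes did). The 8 ratios thus largely restate those genes, and the share over other gene pairs was not computed.

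**Figure D3:**
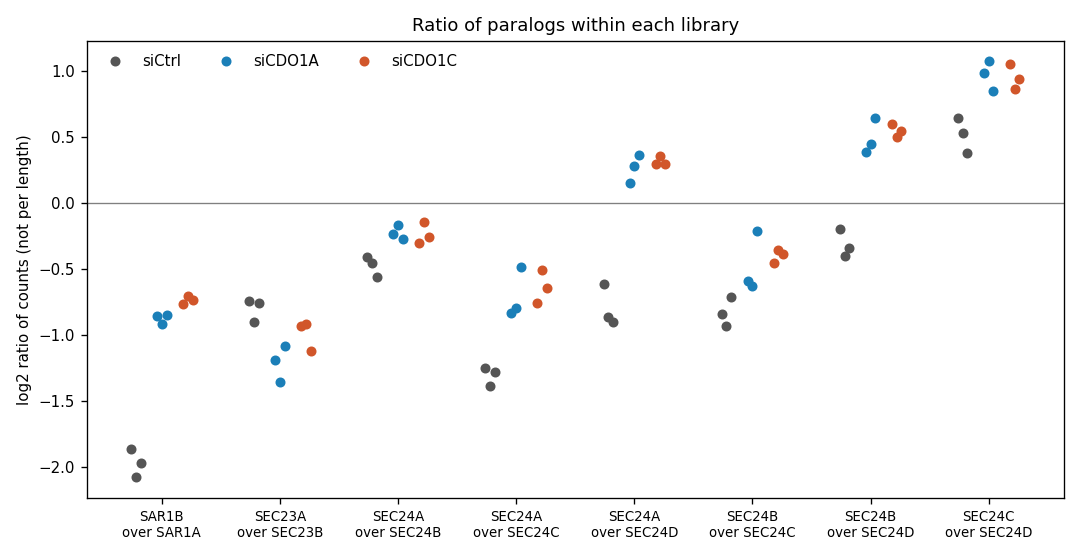
Log2 ratio of the counts of each pair of paralogs (vertical axis, not divided by length) within each library, with 3 points for each group. In each of the 8 pairs the siCtrl points do not overlap the 6 siRNA points, and SEC24A over SEC24D and SEC24B over SEC24D pass from below 0 to above it.

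Levels per length (TPM, counts scaled by the deposited length of all merged exons and by library) ordered the members in siCtrl as SEC23B at 144.6, SEC31A at 90.5, SEC24C at 77.5, SAR1A at 72.6, SEC13 at 71.6, SEC24B at 44.5, SEC23A at 40.6, SEC24D at 29.2, SEC24A at 23.3 and SAR1B at 11.7 TPM. Neighbours whose siCtrl libraries overlapped were SEC24C with SAR1A and SAR1A with SEC13. With either siRNA SEC24D moved from rank 8 to rank 10 and SAR1B from rank 10 to rank 9, but with siCDO1A the libraries of these genes overlapped, SAR1B at 20.1 to 22.7 TPM and SEC24D at 18.4 to 20.6 TPM. Merged exons count parts that a cell may not use, such as the 10963 bases given for SAR1B, so a level between genes is less sure than a change of 1 gene.

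Summed per length, the SAR1 genes gave 84.3 ± 3.49 TPM in siCtrl, 83.4 ± 3.74 with siCDO1A and 91.2 ± 1.63 with siCDO1C (SD, n = 3), and the genotypes overlapped (exact permutation p = 0.429). The overlap came from siCDO1A, since the siCDO1C libraries, at 90.1 to 93.1 TPM, all lay above the siCtrl libraries, at 80.8 to 87.8 TPM. It also depends on the deposited lengths, 10963 bases for SAR1B and 6914 for SAR1A. A shorter length for SAR1B would give its rise more weight in the sum. Within that sum the share of SAR1B went from 13.9 ± 0.905% to 25.6 ± 0.477% and 27.5 ± 0.392%. The SEC24 sum was 174.5 ± 10.95, 175.2 ± 10.3 and 170.6 ± 21.2 TPM (exact permutation p = 0.976), the lowest library being siCDO1C replicate 2 at 146.4 TPM. Its makeup moved: SEC24A from 13.3% to 18.4% and 18.9%, SEC24B from 25.5% to 29.8% and 30.6%, SEC24C from 44.4% to 40.6% and 39.5%, and SEC24D from 16.8% to 11.2% and 11.03%.

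The SEC23 sum was lower, at 185.2 ± 1.59 TPM in siCtrl against 165.9 ± 9.28 and 170.4 ± 8.77 TPM, and every siRNA library lay below siCtrl. The share of SEC23B in it went from 78.1% to 82.5% and 80.2%. The SEC23 sum and all the shares named here had p = 0.0238 by genotype (exact permutation test with both siRNAs pooled, 0.0306 adjusted over 9 values), again the smallest possible. Some gaps were narrow. The SEC24C share reached 42.60% in the siRNA libraries and was at least 42.67% in siCtrl. The SEC23B share was at least 79.39% in the siRNA libraries and reached 79.22% in siCtrl. Shares of 1 family are tied to each other because they add to the whole.

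**Figure D4:**
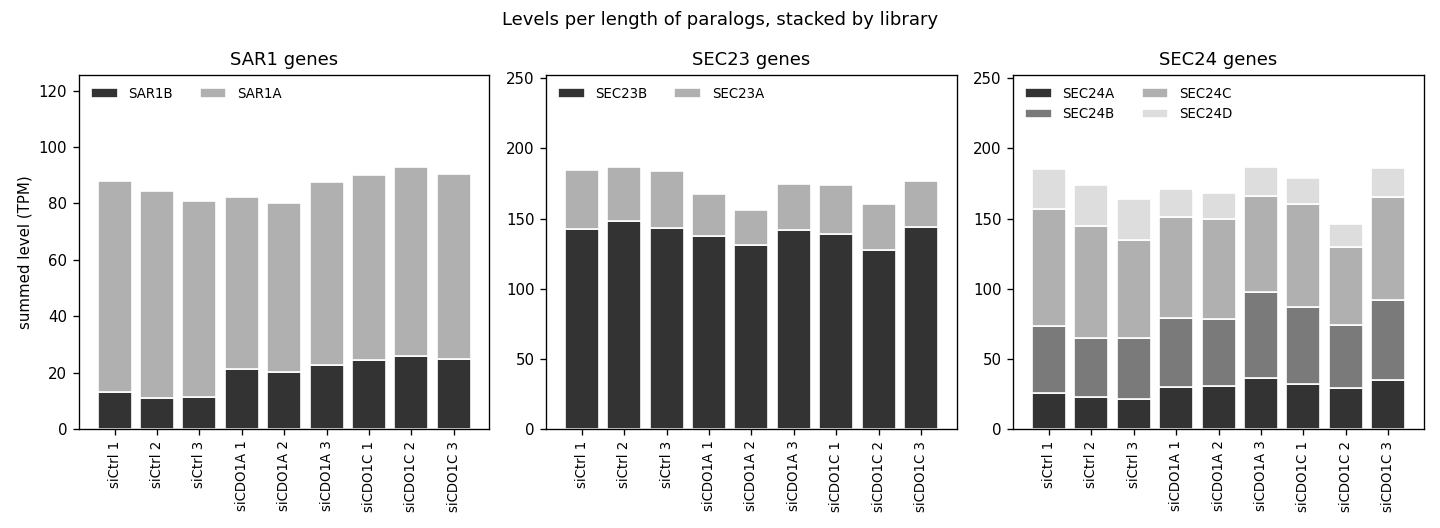
Summed level per length (TPM, vertical axis) of the SAR1, SEC23 and SEC24 genes in each of the 9 libraries, with each paralog as a stacked part. The SAR1B part widens and the SEC24D part narrows in all 6 siRNA libraries, while the SAR1 and SEC24 sums by the deposited lengths overlap between the genotypes.

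Other genes of the same route were read from the same fits, as lists chosen with earlier results known. Of 11 tested genes that regulate COPII or build ER exit sites, MIA3, which helps load collagen, fell with siCDO1A (log2 fold change -0.24, adjusted p = 0.00621). With siCDO1A the other 10 did not pass, where 14.8% of all genes passed and 7.48% fell. None of the 11 passed with siCDO1C, where 4.77% of all genes did. Of 18 cargo receptors, 7 fell and none rose with siCDO1A, where 7.48% of all genes fell and 7.37% rose, among them ERGIC2 (-0.40), TMED9 (-0.27) and MCFD2 (-0.25), the partner of the lectin LMAN1. With siCDO1C 3 fell and none rose, where 2.5% of all genes fell, TMED10 by 0.41, TMED9 by 0.35 and SURF4 by 0.28 on the log2 scale.

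Of 17 genes for tethering and fusion at the Golgi, 1 rose and 5 fell with siCDO1A, beside 7.37% and 7.48% of all genes. The SNARE BET1 rose (0.49, adjusted p = 0.00332), and TRAPPC6B (-0.52), the SNAREs SEC22B (-0.23) and GOSR2 (-0.21) were among those that fell. The tether USO1 was the one that passed with siCDO1C (-0.32, adjusted p = 0.0117), where 4.77% of all genes passed. The median log2 fold changes of the cargo receptors were -0.07 and -0.13, and of the fusion genes -0.09 and -0.09, with siCDO1A and siCDO1C.

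No partner of SEC13 in its other complexes passed in the lower direction, where 7.48% of all genes did with siCDO1A and 2.5% with siCDO1C. Of the other 9 genes of the nuclear pore Y complex 2 rose with each siRNA, NUP85 by 0.34 and 0.34 and NUP43 by 0.24 and 0.34 on the log2 scale, where 7.37% of all genes rose with siCDO1A and 2.27% with siCDO1C. The 4 other GATOR2 genes did not pass in edgeR with either siRNA, where 14.8% of all genes passed with siCDO1A and 4.77% with siCDO1C.

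Transcription factors known to act on COPII genes were mostly lower: 4 of 5 fell with siCDO1A (7.48% of all genes did) and 3 of 5 with siCDO1C (2.5%). CREB3L2, known from cartilage as an activator of SEC23A, was at 98.65, 96.66 and 89.44 CPM in siCtrl, at 65.87, 67.13 and 76.01 CPM with siCDO1A, and at 42.82, 35.15 and 55.11 CPM with siCDO1C. The groups did not overlap, and siCDO1C was lowest. CREB3L2 fell by 0.44 and 1.11 on the log2 scale, and the siRNAs differed from each other (-0.66, adjusted p = 0.0393). For SEC23A the corresponding values were -0.44 and -0.26.

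CREB3L1, an ER membrane factor of secretory cells, fell from 13.4 ± 1.67 to 8.49 ± 1.25 and 5.89 ± 0.506 CPM (SD, n = 3; log2 fold changes -0.65 and -1.19). XBP1, the factor activated by IRE1 splicing, fell by 0.19 and 0.36 on the log2 scale, as total RNA of both splice forms. CREB3 fell with siCDO1A (-0.24, adjusted p = 0.0258) and had -0.17 with siCDO1C (adjusted p = 0.277). ATF6 did not pass, with log2 fold changes of -0.21 and -0.11. Whether these factors act on any coat gene here was not tested.

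**Figure D5:**
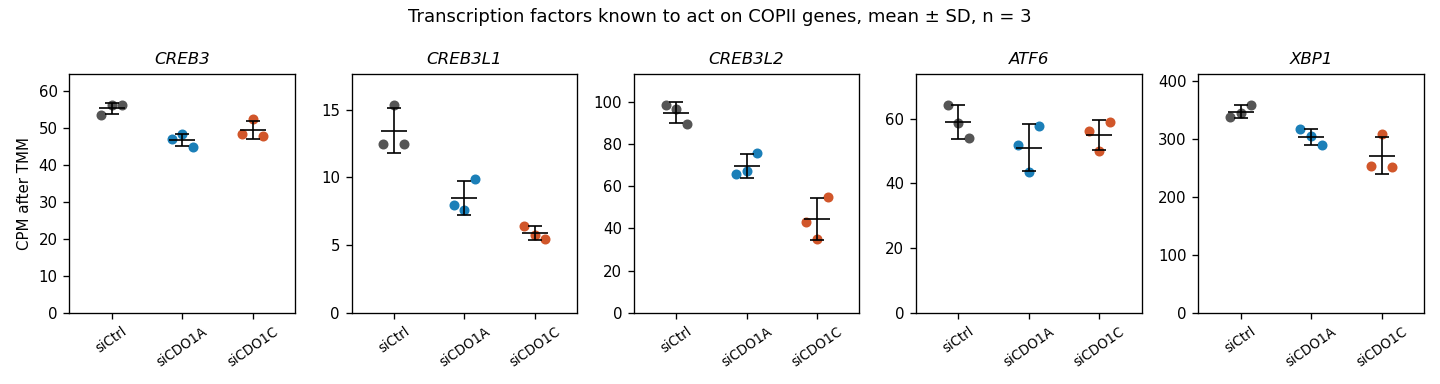
Level of 5 transcription factors known to act on COPII genes, in CPM after TMM scaling (vertical axis, from 0), by group, with points for libraries and bars for the mean ± SD of 3. CREB3L2 and CREB3L1 are lower with siCDO1A and lowest with siCDO1C, and ATF6 overlaps between groups.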

How the data were processed

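Poly(A) RNA libraries, strand specific and read in pairs, were made from 9 samples. The authors aligned reads with HISAT2 2.0.5 to hg38 (per the submitters' processing notes) and deposited whole-number read counts per gene, made with featureCounts; its strand and multi-mapping settings are not given in the sources used here. Gene lengths are those deposited. The table has 3 further columns of counts that match no labelled sample, and they were not used. Counts were tested with edgeR 4.0.16 in R 4.3.3 (TMM, filterByExpr with a minimum count of 10 over 9 libraries, robust quasi-likelihood fit of the 6 libraries compared, Benjamini-Hochberg over 15555 genes), and with DESeq2 1.42.0 as an alternative. The fit was tested on simulated counts. CPM and TPM were computed from the counts. Paralog ratios (counts plus 0.5) and family sums were compared by exact permutation with scipy 1.17.1.

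The batch labels pair libraries of the same number, so an additive replicate block was fitted as well. Deviations from group means over 11337 genes correlated within numbers by -0.376 to -0.0901 between siCDO1A and siCtrl and by -0.277 to 0.0527 between siCDO1C and siCtrl. Between siCDO1C and siCDO1A the correlations were -0.133, 0.127 and 0.378 for replicates 1, 2 and 3. Offsets for GC content and length used GENCODE v44 transcripts, which matched 99.3% of genes tested. The members, lists and motifs were chosen with earlier results of these data known. The genes named are all members, CDO1 and, of each other list, up to 3 that rose and 3 that fell most. A count of 3, or 0.187 to 0.249 CPM, were taken as the detection floor, which covers counting error only. Some genes that the rules would name are not reported here.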

Additional observations from a re-analysis of the deposited data

How the results depend on the processing

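SAR1B and SEC24D passed in both comparisons with siCtrl under each of 15 alternatives, as did SEC23A and SEC24A with siCDO1A. The 6 members called with siCDO1A became 4 with a replicate block, which lost SAR1A and SEC24B, and 4 to 6 when 1 library was left out. The 3 called with siCDO1C stayed 3 with the block (which changed no other call there) and became 5 with GC content and length offsets together with the block, 2 to 6 when 1 library was left out (6 without siCDO1C replicate 2), and 7 in a fit of 7 libraries without siCDO1A replicate 3 and siCDO1C replicate 2, chosen after seeing the data. The cause was not tested. Over all genes the calls with siCDO1A were 2309 (1358 with the block, 3300 with GC content and length offsets, 1369 in 1 fit of 9 libraries). With siCDO1C the calls over all genes were 742, with 1290 under the offsets and 1300 under both. They were 2068 without siCDO1C replicate 2, 2345 in the fit of 7 libraries, and 263 at the lowest without a siCtrl library. Between siRNAs they were 69, and 18 to 447 when 1 library was left out.

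Signs turned only where values were near 0. With siCDO1A, SEC23B was 0.0034 with the offsets and 0.0037 with the offsets and block. Between siRNAs, with 1 library left out, SEC24A spanned -0.099 to 0.050 (above 0 without siCDO1A replicate 3), SEC24B -0.099 to 0.089 and SEC31A -0.12 to 0.060 (above 0 without siCDO1A replicate 3 or siCDO1C replicate 2). The SEC24 sum differed by 0.398 with CPM per kb, and by -6.99 to 3.96 TPM with 1 library left out (above 0 without siCtrl replicate 1 or siCDO1C replicate 2).

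With the replicate block the ratio differences were 1.16 (SAR1B over SAR1A), -0.30 (SEC23A over SEC23B), 0.24, 0.64 and 1.08 (SEC24A over SEC24B, SEC24C and SEC24D), 0.39 and 0.83 (SEC24B over SEC24C and SEC24D) and 0.44 (SEC24C over SEC24D), where 3 pairs cannot go below an exact p of 0.25. Without 1 library they spanned, in the same order, 1.11 to 1.22, -0.35 to -0.25, 0.20 to 0.28, 0.59 to 0.67, 1.02 to 1.17, 0.34 to 0.45, 0.79 to 0.89 and 0.37 to 0.51, and without a siCtrl library no exact p below 0.0714 is possible. Likewise the share differences spanned, in percentage points, 12.2 to 13.1 (SAR1B), 2.76 to 3.86 (SEC23B), 5.08 to 5.67 (SEC24A), 4.11 to 5.17 (SEC24B), -5.19 to -3.70 (SEC24C) and -6.29 to -5.18 (SEC24D), and the SEC23 sum -18.7 to -14.6 TPM. These p-values say nothing of stability.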

Other observations

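Genes whose log2 CPM, set against their own siCtrl mean, followed a coat gene most closely over the 9 libraries were sought among 11337 genes, as a description. Closest to SAR1B were TGFB2, a secreted growth factor (root mean square difference 0.105 on the log2 scale), and YWHAH, a 14-3-3 protein (0.116). YWHAH rose by 1.04 with siCDO1A and 1.13 with siCDO1C on the log2 scale, beside 0.91 and 1.10 for SAR1B.

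Closest to SEC24A were METTL16, an RNA methyltransferase (0.0511), PTBP3, an RNA-binding protein (0.0528), and SPOPL (0.0615). Closest to SEC24D were UGT2B15, an enzyme that inactivates androgens (0.0680), ALDH3B2 (0.0720) and DNAJC3, a co-chaperone of the ER (0.0858). DNAJC3 fell by 0.53 and 0.54, beside 0.54 and 0.63 for SEC24D. UGT2B15 has near-identical relatives, so its counts are uncertain. The 3′UTR letters GCAGTAC, searched as in the coat genes, were present in TGFB2, YWHAH, METTL16 and PTBP3 and absent from SPOPL, UGT2B15, ALDH3B2 and DNAJC3. They were in 5.58% of the 12976 tested genes with such a 3′UTR, a share not matched for length. The letters came from earlier results of these libraries and the genes were picked by their change, so this is not independent evidence.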
